A study of Homo sapiens with 30 samples.

Results

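A set of 36 genes of DNA replication and of the step from G1 into S phase was followed in BEAS-2B, an immortalised line of human bronchial epithelial cells, after exposure to whole birch pollen. A gene was taken in when its name in the array files was on a list of replication factors and G1/S regulators. Its measured values were not part of this rule, but the list was chosen with earlier results of these data known. All 36 genes had a tested probe, out of 24517 gene names tested. Each gene is read from 1 standing probe, its brightest on average, and all 36 of these were well above background on all 30 arrays.

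The cells were grown on membrane inserts in BEGM medium and kept at the air-liquid interface before exposure. One arm received 10 mg of birch pollen blown into a sedimentation chamber with pressured air, and the other arm, labelled air and called mock here, was handled identically while, per the methods, a mesh kept pollen from the wells. RNA was taken at 5 times, namely 10 min and 55 min, then 2h25 min, then 6h50 min, and lastly 24 h, with 3 one-colour arrays in each of the 10 groups. The labels number the replicates and the methods speak of repetitions on different days, but which arrays share a day is not given, so that p-values measure the spread between these arrays. BEAS-2B is a single line made with a hybrid of an adenovirus and SV40, whose large T antigen binds the RB protein and p53. Of the cell type markers looked up, 7 of 7 epithelial and 4 of 4 mesenchymal genes were well above background on all arrays. Of the markers of other cell types, the ciliated genes FOXJ1 and TPPP3 were well above background on 8 arrays and 1 array, the secretory genes SCGB1A1, MUC5AC and MUC5B on 29, 27 and 0, the immune genes PTPRC, CD14, CD3E and MS4A1 on 30, 30, 17 and 0, and the endothelial genes VWF and PECAM1 on 28 and 0.

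Replication starts from licensed origins. CDC6 and CDT1 load the MCM2 to MCM7 helicase onto DNA in G1, and MCM10, CDC45 and the GINS complex turn it into an active helicase at the start of S phase. Polymerase alpha with its primase makes the primers, the RFC complex places the PCNA clamp, and the polymerases epsilon and delta extend the strands, while FEN1 and LIG1 join the lagging strand. Cyclin D1 and cyclin E with their kinases phosphorylate RB, which frees E2F factors that in turn raise transcription of most of these genes.

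RefSeq promoters on GRCh38.p14 were at hand for 31 of the 36 genes, each with 250 bases before and the bases just after the start. They are shown because E2F binding is the best known control that these genes share. The letters TTTCCCGC or TTTGGCGC, a strong form of the E2F motif, were found on either strand in 16 of these 31 windows, or 51.6%, against 631 of 27305 promoters in all, or 2.31%. CCAAT, the NF-Y motif, was in 54.8% of the members' windows and 35.7% of all. GGGCGG, the SP1 motif, was in 74.2% and 44.6%, and TTTGAA, the CHR motif of genes expressed later in the cycle, in 3.23% and 15.4%. The windows of CCNE1, RRM2 and CDC45 held none of the E2F letters, which says only that these letters are not in that stretch. The following 4 stretches lie upstream of the start, read along the gene, with the E2F letters or their reverse complement in capitals.
MCM6, chr2:135876486-135876635, minus strand: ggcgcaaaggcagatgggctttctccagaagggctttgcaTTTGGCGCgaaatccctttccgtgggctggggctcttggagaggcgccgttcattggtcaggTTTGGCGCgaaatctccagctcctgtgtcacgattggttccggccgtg
POLA1, chrX:24693741-24693890, plus strand: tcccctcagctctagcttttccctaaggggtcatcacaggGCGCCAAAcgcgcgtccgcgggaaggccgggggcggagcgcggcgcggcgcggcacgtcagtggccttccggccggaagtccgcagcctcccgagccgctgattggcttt
LIG1, chr19:48170349-48170498, minus strand: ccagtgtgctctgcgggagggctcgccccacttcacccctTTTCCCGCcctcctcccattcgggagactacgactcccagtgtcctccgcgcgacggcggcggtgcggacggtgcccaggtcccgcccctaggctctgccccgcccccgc
PCNA, chr20:5126623-5126772, minus strand: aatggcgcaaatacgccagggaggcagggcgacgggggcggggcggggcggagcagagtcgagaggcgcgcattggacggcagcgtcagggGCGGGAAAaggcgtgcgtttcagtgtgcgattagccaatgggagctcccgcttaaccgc

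Values are log2 of the spot signal minus the 75th percentile of that array over the probes on both array designs, so that a value of 0 is the level of the percentile. They are compared between arrays for 1 probe and not between probes. Differences are in log2 units with the standard error (SE) of limma's fit, and a gene is called where its adjusted p (Benjamini-Hochberg) is under 0.05 and its change at least 1.1-fold. Slides bear on the times: all 10 min arrays lay on slide 1, all 6h50 min arrays on slide 5, and all 24 h arrays on slide 4 together with 1 mock and 1 pollen array of 2h25 min. Within 10 min, 6h50 min and 24 h both arms shared a slide. Pollen replicate 1 of 55 min was hybridised to a different array design and is the only array on its slide. No spot was saturated, and 44.7% to 62.7% of an array's probes exceeded background.

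The comparison of pollen with mock asks what pollen adds to the handling, and for these genes no difference between pollen and mock passed the test. No member was called at any of the 5 times by limma, and in order of time 0, 0, 1, 7 and 1 members had an unadjusted p under 0.05. Over all gene names the percentages called were 0%, 0.00408%, 0.0449%, 0.0408% and 0.00408%, or 0, 1, 11, 10 and 1 of 24517. At an unadjusted p under 0.05 the members' shares were 0%, 0%, 2.78%, 19.4% and 2.78%, against 1.85%, 5.2%, 2.99%, 7.15% and 3.64% of all gene names. The medians over the 36 members were -0.03, 0.07, -0.02, -0.02 and -0.09, against 0.00, -0.01, -0.03, -0.01 and 0.00 over all gene names. The SE of a member lay between 0.08 and 0.20. The 95% interval stayed within a 1.5-fold change either way for 36 of 36 members at 10 min, 35 at 55 min, 33 at 2h25 min, 32 at 6h50 min and 33 at 24 h. The exceptions at the later times were POLE, RFC3 and CCND1 at 2h25 min, MCM4, CDC6, CCND1 and CHAF1A at 6h50 min, and CDC6, POLE and CCND1 at 24 h.

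**Figure D1:**
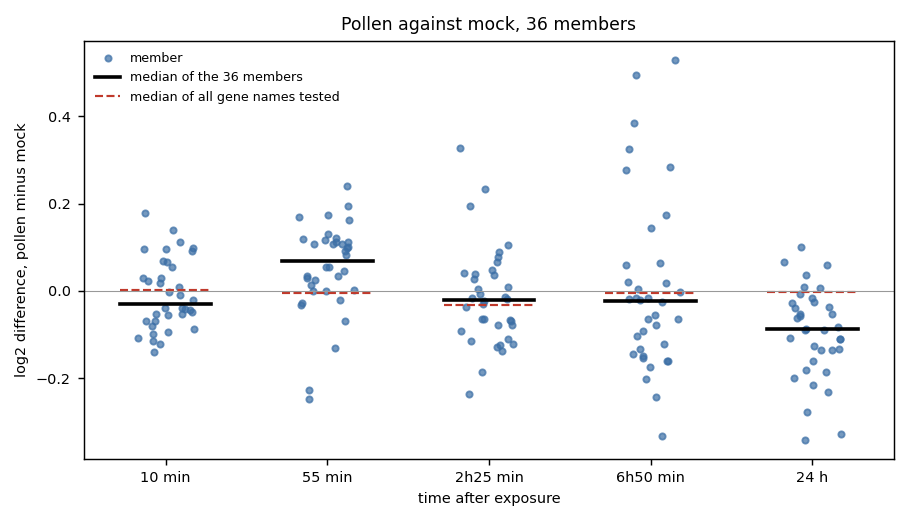
Log2 difference of pollen minus mock (vertical axis) for the 36 members at each time after exposure (horizontal axis). Each point is 1 member, solid bars are the members' median and dashed lines the median of all 24517 gene names tested; the points spread widest at 6h50 min, from -0.33 to 0.53, and lie mostly below 0 at 24 h.

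At 10 min the member with the smallest p was POLA1, the catalytic subunit of polymerase alpha. It stood at 2.27, 2.10 and 2.43 in mock and at 2.19, 1.93 and 2.27 in pollen, and the arms overlapped (difference -0.14, SE 0.12). No member had groups that did not overlap at this time.

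At 55 min 27 of the 36 members were higher in pollen, and the values of 9 were higher on every pollen array than on every mock array, 25% against 6.11% of all gene names. The values of 2, POLD1 and POLE, were lower on every pollen array, 5.56% against 4.81%. POLD1 stood at 2.741, 2.772 and 2.745 in mock and at 2.22, 2.709 and 2.645 in pollen (difference -0.23, SE 0.12). The value of 2.22 is from the array of the other design, and the other pollen values lay closer to mock. POLE differed by -0.25, and a second probe of it by -0.083. RFC4, a small subunit of the clamp loader, stood at 4.66, 4.68 and 4.80 in mock and at 4.92, 4.86 and 4.85 in pollen (difference 0.16, SE 0.08). CCNE2, cyclin E2, stood at 1.57, 1.74 and 1.42 in mock and at 1.81, 1.81 and 1.84 in pollen (difference 0.24, SE 0.14). The arms of RFC4 and of CCNE2 were apart, and neither gene passed the test (adjusted p = 0.92 for both in limma). Without the pollen array of the other design, 20 members were higher and 16 lower, with a median of 0.00, and within slide 2, with 2 arrays per arm, 23 were higher. Scaling moved this count together with the median of all gene names. With quantile normalization over each array's own probes 0 of 36 members were above 0, at a median of -0.29 against -0.49 over all gene names, and with normexp and quantile normalization 1 was, at a median of -0.32 against -0.26. With quantile normalization over the probes of both designs 25 were above 0, at a median of 0.06 against 0.01.

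At 2h25 min PCNA, the sliding clamp of the polymerases, was at 4.97, 4.91 and 4.79 in mock and at 5.22, 5.01 and 5.04 in pollen. Every pollen array was above every mock array, by 0.20 on average (SE 0.09), with an unadjusted p of 0.0438 and an adjusted p of 1. A second probe of PCNA differed by 0.058. RFC3, another clamp loader subunit, was at 0.55, 0.55 and 0.19 in mock and at 1.01, 0.63 and 0.63 in pollen (difference 0.33, SE 0.16). A second probe of RFC3 differed by 0.204. By their standing probes PCNA and RFC3 were 2 of the 3 members whose arms did not overlap, the other being POLA2 with a difference of -0.24. The 2 higher members are 5.56% and the 1 lower member 2.78% of the 36, against 2.85% and 3.85% of all gene names.

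At 6h50 min the differences between the arms were the widest, with 5 members higher and 4 lower on every pollen array, or 13.9% and 11.1%, against 6.29% and 5.31% of all gene names. CHAF1A, the large subunit of the CAF-1 histone chaperone, stood at 4.34, 4.17 and 4.29 in mock and at 4.69, 4.66 and 4.62 in pollen, 1.31-fold higher (difference 0.39, SE 0.10, adjusted p = 0.16). Its second probe differed by 0.46 in the same direction. MCM10 went the other way, at 0.86, 1.08 and 1.19 in mock and at 0.74, 0.70 and 0.68 in pollen (difference -0.33, SE 0.10, adjusted p = 0.215). CCND1, cyclin D1, was at -1.97, -1.76 and -1.78 in mock and at -1.33, -1.18 and -1.41 in pollen, 1.44-fold higher (difference 0.53, SE 0.19, adjusted p = 0.373). CCND1 had the largest difference of the 4 G1/S regulators at this time. The arms of CCNE1 and CCNE2 were apart as well, in opposite directions, with differences of 0.17 and -0.24. A second probe of CCNE2 differed by -0.061. E2F1 differed by -0.03, and its arms overlapped.

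LIG1 lay in no dim area and its arms were apart at 6h50 min. It was at 2.67, 2.74 and 2.48 in mock and at 2.93, 2.93 and 2.87 in pollen (difference 0.28, SE 0.13). PRIM1 and POLE2, also in no dim area, were lower on every pollen array (differences -0.175 and -0.154). The 6h50 min differences of MCM4, GINS4 and CDC6 went with spread or dim areas among the mock arrays. MCM4 was at 1.46, 1.99 and 2.40 in mock and at 2.59, 2.44 and 2.30 in pollen, so that the mock arrays were spread over more than the arms differed (difference 0.50, SE 0.18). Without mock replicate 3 it was called, with a difference of 0.72 and an adjusted p of 0.0304 in limma, the single call of a member between pollen and mock under any setting run. GINS4 was at 2.28, 2.24 and 2.50 in mock and at 2.69, 2.62 and 2.56 in pollen. Its spot lay in a dim area of mock replicates 1 and 2, and with dim areas left out the difference fell from 0.28 to 0.13. CDC6 was at -2.56, -2.21 and -1.78 in mock, the first of these in a dim area, and at -1.86, -1.99 and -1.71 in pollen (difference 0.33, SE 0.16), and with dim areas left out the difference was 0.14.

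At 24 h 30 of the 36 members were lower in pollen than in mock and 6 were higher, by a median of -0.09. The higher members are 16.7%, against 49.4% of all gene names. RRM2, the small subunit of ribonucleotide reductase, stood at 1.33, 1.27 and 1.43 in mock and at 0.87, 1.11 and 1.06 in pollen. All pollen arrays were below all mock arrays, with a 1.26-fold lower level (difference -0.33, SE 0.12), an unadjusted p of 0.0120 and an adjusted p of 1. Its other 2 probes, both named C2orf48 in another annotation of the array, differed by -0.27 and -0.33. GINS3, a GINS subunit, was at 3.44, 3.51 and 3.35 in mock and at 3.33, 3.30 and 3.08 in pollen. It was the other member with arms apart, and 2 of 36, or 5.56%, compares with 3.44% of all gene names. No member was higher on every pollen array, against 5.54% of all gene names. All 8 origin licensing genes and all 6 genes of helicase activation were on the lower side, with medians of -0.05 and -0.12. Between 27 and 32 members were lower under the other scalings tried, and between 29 and 30 when 1 array was left out. Members share arrays, so this count is a description and carries no test.

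Whether the effect of pollen changed from 10 min was tested as a difference of differences. No member was called at any of the later times, where in order the percentages of all gene names called were 0%, 0.00408%, 0% and 0%. The number of members at an unadjusted p under 0.05 was 0, 1, 3 and 0. Their shares were 0%, 2.78%, 8.33% and 0%, against 3.82%, 3.16%, 4.28% and 2.94% of all gene names. The smallest of the members' p was 0.0238 for GINS4 at 6h50 min, whose dim spots are described above.

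**Figure D2:**
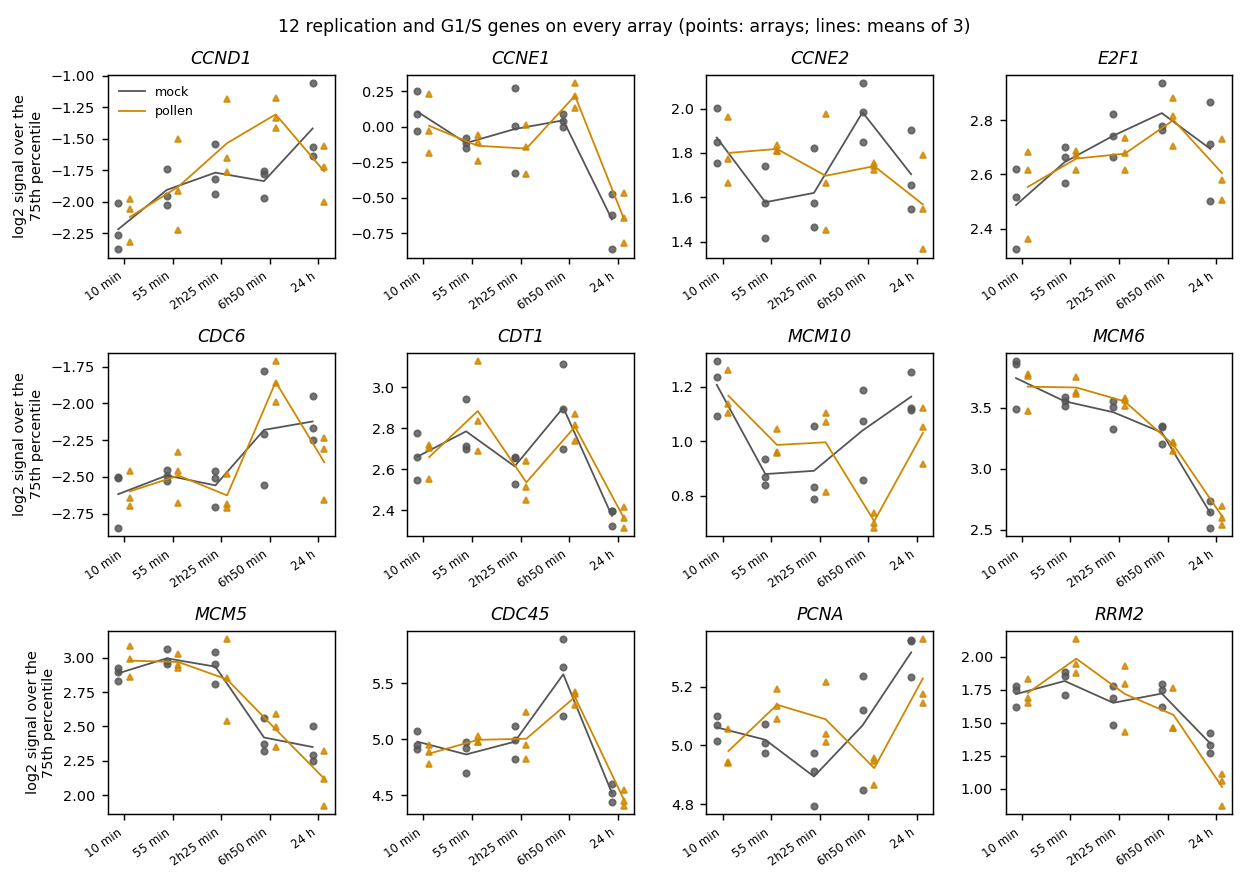
Log2 signal over the 75th percentile (vertical axis, scaled per panel) of 12 members on all 30 arrays at the 5 times (horizontal axis). Grey circles are mock arrays, orange triangles pollen arrays and lines the means of 3; MCM6 falls from between 3.48 and 3.88 at 10 min to between 2.52 and 2.74 at 24 h in both arms.

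Between times the members did differ, in both arms. At 55 min and 2h25 min against 10 min no member was called in either arm. The percentages of all gene names called were 0.204% and 0.192% in mock and 0.93% and 2.26% in pollen. In the same order 3, 6, 1 and 2 members were at an unadjusted p under 0.05. These are 8.33%, 16.7%, 2.78% and 5.56% of the members, against 10.8%, 12.2%, 15.6% and 17.6% of all gene names. MCM10 had the smallest p of the members in mock at 55 min, falling short of the test from 1.09, 1.24 and 1.30 at 10 min to 0.87, 0.93 and 0.84 (difference -0.33, SE 0.10, adjusted p = 0.207). CCND1 stood at -2.06, -1.98 and -2.32 in pollen at 10 min and at -1.77, -1.18 and -1.66 at 2h25 min (difference 0.59, SE 0.19, adjusted p = 0.0985).

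At 24 h many of the genes were lower than at 10 min. In mock 17 of the 36 members were called lower and 4 higher, and in pollen 19 lower and 2 higher. Of all gene names 20% were called lower and 17.2% higher in mock, and 19.7% lower and 16% higher in pollen, and the members' counts lower lie above these shares. The medians over the members were -0.28 in mock and -0.30 in pollen, against -0.08 in both arms over all gene names. On every array of 24 h the level was below every array of 10 min for 18 members in mock and 21 in pollen, or 50% and 58.3%, compared with 29.2% and 27% of all gene names. A total of 16 members were called lower in both arms, namely MCM3, MCM5, MCM6, MCM7, CDT1, CDC45, GINS4, POLA1, PRIM1, POLE2, POLD1, RFC3, RFC4, LIG1, RRM2 and CCNE1, and 2 were called higher in both, PCNA and RFC5. Both comparisons are of separate arrays, 6 in mock and 6 in pollen. Bulk RNA cannot tell fewer cells in S phase from less RNA per cell.

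The largest fall of a single member was in a licensing gene, MCM6. As a group the licensing genes had medians of -0.292 in mock and -0.31 in pollen. Those of the polymerase and primase genes (-0.384 and -0.405) and of nucleotide supply (-0.375 and -0.343) were lower. MCM6, a subunit of the helicase whose probe lies at chr2:136598217-136598276 on hg19, stood at 3.49, 3.88 and 3.85 in mock at 10 min and at 2.52, 2.65 and 2.74 at 24 h. In pollen it stood at 3.48, 3.76 and 3.78 and then at 2.54, 2.59 and 2.70. The level was 2.16-fold lower in mock (difference -1.11, SE 0.10, adjusted p = 6.23e-08) and 2.09-fold lower in pollen (difference -1.06, SE 0.10, adjusted p = 2.13e-07). MCM5 was at 2.90, 2.83 and 2.93 in mock at 10 min and at 2.50, 2.29 and 2.25 at 24 h, and in pollen it went from 3.08, 2.99 and 2.86 to 2.32, 2.12 and 1.92. Its differences were -0.54 and -0.86 (SE 0.12 for both), and a second probe gave -0.37 and -0.52. MCM3, MCM7 and CDT1 fell by between 0.26 and 0.32 on the log2 scale in both arms. A second probe of MCM7 gave -0.075 in mock and -0.429 in pollen. With the mean over its probes MCM7 was not called in mock (-0.17, adjusted p = 0.388 in limma). MCM2 was not called, with differences of 0.05 and -0.26, and MCM4 was called in pollen alone, with -0.30 in mock and -0.53 in pollen.

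CDC6 was the exception among the licensing genes. It stood at -2.50, -2.85 and -2.51 in mock at 10 min and at -1.95, -2.17 and -2.25 at 24 h, and it was called higher (difference 0.49, SE 0.16, adjusted p = 0.0163). In pollen it stood at -2.46, -2.64 and -2.70 and then at -2.24, -2.31 and -2.66, which was not called (difference 0.20). The difference between these changes was not called either, as for every other member. CDT1, which loads the same helicase, ended at 2.40, 2.40 and 2.32 in mock, below its 2.55, 2.66 and 2.78 at 10 min.

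Among the factors that activate the helicase, CDC45 and GINS4 were called lower in both arms. CDC45 stood at 5.07, 4.95 and 4.91 in mock at 10 min and at 4.438, 4.598 and 4.522 at 24 h (difference -0.46, SE 0.13), and the difference in pollen was -0.41. MCM10, GINS1, GINS2 and GINS3 were not called, with differences between -0.14 and 0.18. Of the 6 polymerase and primase genes 4 were called lower in mock and 5 in pollen, with medians of -0.38 and -0.41, and POLE was the one called in neither arm. POLA1 stood at 2.27, 2.10 and 2.43 in mock at 10 min and at 1.58, 1.79 and 1.76 at 24 h, and its primase partner PRIM1 differed by -0.44 in mock and -0.40 in pollen.

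The clamp and its loader did not move as 1 group. RFC3 and RFC4 were called lower in both arms and RFC5 higher in both, with 0.30 in each, while PCNA stood at 5.10, 5.01 and 5.07 in mock at 10 min and at 5.23, 5.36 and 5.36 at 24 h (difference 0.26, SE 0.09, adjusted p = 0.0311). A second PCNA probe gave 0.28 in mock and 0.26 in pollen. With the deposited values, however, the change of PCNA was 0.13 in mock and -0.01 in pollen, so that its direction in pollen depends on the scaling, and with quantile normalization over the probes of both designs neither PCNA nor RFC5 was called in either arm. RFC3 rests on its standing probe, since a second probe of the gene gave 0.10 in mock and 0.13 in pollen against -0.79 and -0.58. LIG1, the ligase of the lagging strand, was lower by 1.43-fold in mock and 1.51-fold in pollen, and FEN1, which trims the flaps before ligation, was not called.

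For the supply of nucleotides, RRM2 fell in both arms. It stood at 1.78, 1.62 and 1.75 in mock and 1.69, 1.65 and 1.83 in pollen at 10 min, and was 1.30-fold lower in mock (difference -0.38, SE 0.12) and 1.64-fold lower in pollen (difference -0.71, SE 0.12) at 24 h. The other 2 probes named RRM2 are both named C2orf48 in another annotation of the array. One gave 0.17 in mock and -0.17 in pollen, and the other -0.43 and -0.68. TYMS, thymidylate synthase, was called lower in mock alone (-0.50) and stood at -0.34 in pollen, and RRM1, the large reductase subunit, missed the threshold in both (-0.27 and -0.29, adjusted p = 0.0710 and 0.0552). Neither CAF-1 gene was called in either arm by its standing probe, though a second probe of CHAF1A gave 0.58 in mock and 0.14 in pollen against 0.03 and -0.14.

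Among the cyclins of G1, CCNE1 was called lower in both arms and CCND1 higher in mock alone. CCNE1, cyclin E1, stood at -0.03, 0.09 and 0.25 in mock at 10 min and at -0.47, -0.86 and -0.62 at 24 h, and in pollen it went from -0.03, -0.18 and 0.23 to -0.47, -0.82 and -0.64. It was 1.69-fold lower in mock and 1.57-fold lower in pollen (differences -0.76 and -0.65, SE 0.14 for both). CCND1 stood at -2.01, -2.38 and -2.27 in mock at 10 min and at -1.06, -1.56 and -1.64 at 24 h, 1.74-fold higher (difference 0.80, SE 0.19, adjusted p = 0.00177). In pollen CCND1 ended at -1.556, -1.720 and -2.001, with a difference of 0.36 that was not called. CCNE2 (-0.17 and -0.23) and E2F1 (0.21 and 0.05), the E2F factor best known for driving S phase, were called in neither arm. E2F1 stood at 2.62, 2.52 and 2.32 in mock at 10 min and at 2.87, 2.71 and 2.50 at 24 h, and in pollen at 2.68, 2.61 and 2.36 and then at 2.73, 2.58 and 2.50, so that the times overlapped in both arms.

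**Figure D3:**
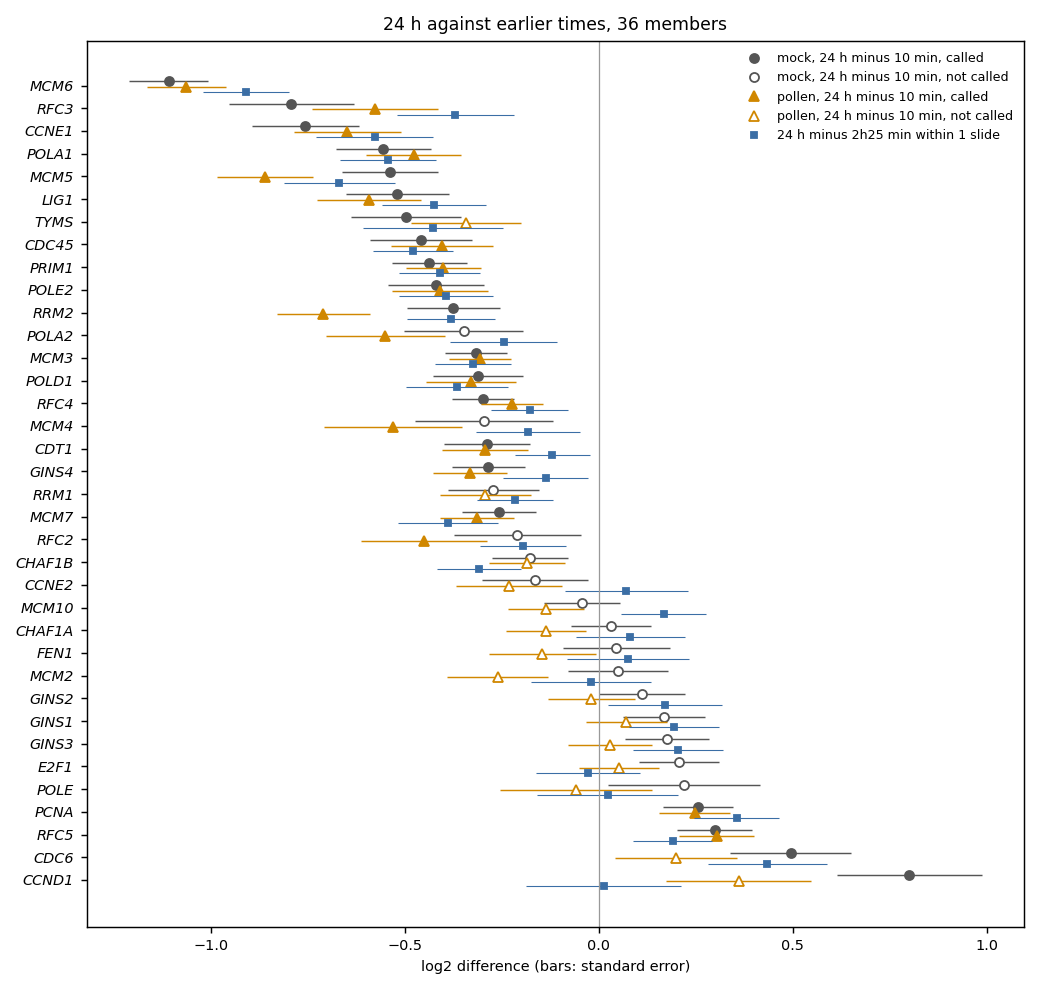
Log2 difference (horizontal axis, bars are SE) of 24 h minus 10 min in mock (circles) and pollen (triangles), filled where called, and of 24 h minus 2h25 min within 1 slide (blue squares), for the 36 members ordered by their change in mock. MCM6 lies at the bottom of the scale in all 3 comparisons, at -1.11, -1.06 and -0.91, and CCND1 lies at 0.80, 0.36 and 0.01.

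Time and slide were not fully separate in this comparison, because the 10 min and 24 h arrays had no slide in common. With slide as a block, which links the times through the arrays of 55 min and 2h25 min, MCM6 was the only member called in each arm (difference -1.10 in mock and -1.05 in pollen), and the members' medians were -0.06 and -0.19. With slide as a random block, 11 members were called lower and 2 higher in mock, and 10 lower and 0 higher in pollen. Under the block CDT1 turned to 0.08 in both arms and LIG1 to 0.01 in mock, and the medians of all gene names were -0.07 and -0.09.

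The slide of the 24 h arrays also carried 2 arrays of 2h25 min, and this allowed a comparison within 1 slide, chosen after the layout had been seen. With both arms together, 5 members were called lower at 24 h and 0 higher, against 8.52% of all gene names lower and 6.86% higher. The 5 were MCM6 (-0.91, SE 0.11, adjusted p = 0.00996), MCM5 (-0.67), POLA1 (-0.54), CDC45 (-0.48) and PRIM1 (-0.41), and CCNE1 missed the threshold with -0.58 (SE 0.15, adjusted p = 0.051). On that slide MCM6 was at 3.504 and 3.561 on the mock and pollen arrays of 2h25 min, and between 2.52 and 2.74 on the 6 arrays of 24 h. In all 24 of the 36 members were lower, with a median of -0.19 against -0.05 over all gene names. Under the other scalings tried, between 8 and 14 members were called lower and 0 or 1 higher. CCND1 differed by 0.01 (SE 0.20), CDC6 by 0.43 and PCNA by 0.36 (adjusted p = 0.111 and 0.0794). The arrays of 2h25 min were mock and pollen of 1 number, which deviated together, and these p-values treat same-numbered arrays as separate. When same-numbered arrays were averaged first, leaving 3 values against 1, limma called no member and 0 of 24512 gene names, and at an unadjusted p under 0.05 6 members were lower and 0 higher, or 16.7% lower against 12.3% of all gene names. MCM6 then had an adjusted p of 0.0982 at the same difference.

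**Figure D4:**
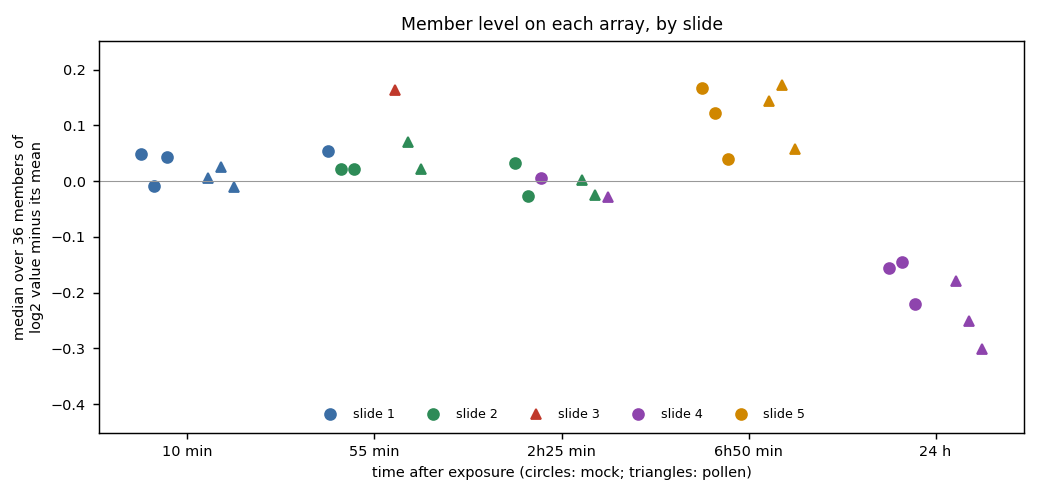
Median over the 36 members of the log2 value minus the member's mean over the 10 groups (vertical axis), for each array at the 5 times (horizontal axis, circles mock, triangles pollen), coloured by slide. The 6 arrays of 24 h lie between -0.30 and -0.14, while the 2 arrays of 2h25 min on the same slide lie at 0.01 and -0.03.

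At 6h50 min the genes were split. In mock 9 members were called higher and 6 lower than at 10 min, and in pollen 10 higher and 6 lower. Of all gene names 13.7% were called higher and 25.7% lower in mock, and 15.4% higher and 29.3% lower in pollen, around a median that itself lay at -0.18 and -0.19. The members' medians were 0.11 and 0.14. With quantile normalization over the probes of both designs, where the median of all gene names was 0.02 and 0.01, the split of the members was 3 higher and 6 lower in mock and 3 higher and 8 lower in pollen, and that of all gene names on both designs 3294 higher and 2575 lower in mock and 3414 and 2937 in pollen, against 3365 and 6308 and against 3784 and 7174 with the percentile. All 6h50 min arrays lay on a slide of their own and of a scan of their own, and 2 mock arrays had dim areas, so that time and slide cannot be told apart here.

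CDC45 and CDC6 were called higher at 6h50 min under both of these scalings and in both arms. CDC45 stood at 5.89, 5.64 and 5.21 in mock and at 5.42, 5.40 and 5.31 in pollen, against between 4.78 and 5.07 at 10 min, with differences of 0.60 and 0.51 (SE 0.13). CDC6 differed by 0.44 in mock and 0.74 in pollen (SE 0.16). MCM5, MCM6, GINS4, RFC3 and PRIM1 were called lower under both scalings in both arms, with MCM6 at -0.45 and -0.48 and MCM5 at -0.47 and -0.50. With the mean over a gene's probes in place of the standing probe, MCM5 (-0.36 in mock and -0.26 in pollen) and RFC3 (-0.30 and -0.31) were called in neither arm (adjusted p = 0.0665 and 0.168 for MCM5, 0.0821 and 0.0659 for RFC3). By that mean CCNE2 was called lower in both arms (-0.41 and -0.50, adjusted p = 0.0188 and 0.00519 in limma). Its second probe gave -0.935 in mock and -0.934 in pollen, against 0.11 and -0.06 for its standing probe. GINS4 in mock differed by -0.61, and by -0.46 with dim areas left out. GINS1, POLD1, RRM1, RFC5 and CHAF1B were called higher in both arms with the percentile scaling and not with that quantile normalization, where they lay between 0.10 and 0.31. GINS3 was called higher in both arms with the percentile scaling (0.40 and 0.37), and in mock alone with that quantile normalization (0.27). E2F1 was called higher in mock with the percentile scaling (0.34, adjusted p = 0.0134 in limma) and not in pollen (0.25, adjusted p = 0.0569). It was called in neither arm with that quantile normalization. CCND1 was called in pollen, with 0.81 (SE 0.19), and stood at 0.38 in mock. MCM10 was called lower in pollen, with -0.46 (SE 0.10), and stood at -0.17 in mock. Leaving out mock replicate 1, 6 members were called in mock, and leaving out mock 10 min replicate 2 gave 8.

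Beyond the 36 genes, a wider list of 73 further genes of replication, cell cycle entry and its inhibitors all had a tested probe. No gene of it was called between pollen and mock at any time, with 0, 1, 3, 3 and 2 at an unadjusted p under 0.05. These are 0%, 1.37%, 4.11%, 4.11% and 2.74% of the list, against 1.85%, 5.2%, 2.99%, 7.15% and 3.64% of all gene names. TFDP1, the partner of E2F factors in DNA binding, named after its values were seen, had the smallest p of the list, at 6h50 min (difference -0.33, SE 0.08, adjusted p = 0.124), and all its pollen arrays were below all its mock arrays. At 55 min against 10 min TICRR, which brings CDC45 to origins, was called lower in pollen (difference -0.51, SE 0.12, adjusted p = 0.0491). This 1 call is 1.37% of the list, against 0.453% of all gene names called lower. TICRR was lower in mock too (difference -0.375, SE 0.122), where it was not called. All its mock arrays of 55 min were below all those of 10 min.

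At 24 h against 10 min 25 genes of the wider list were called lower and 11 higher in mock, and 19 lower and 9 higher in pollen. These are 34.2% lower and 15.1% higher in mock and 26% lower and 12.3% higher in pollen, against 20% and 17.2% and against 19.7% and 16% of all gene names. CDKN1A, which encodes the inhibitor p21 of the cyclin-dependent kinases, showed the largest rise of the list in both arms, by 1.99 in mock and 1.67 in pollen (SE 0.26, adjusted p = 3.56e-06 in mock). CDKN2B, an inhibitor of CDK4 and CDK6, rose by 0.76 in mock and 0.46 in pollen, and CDC25A, a phosphatase that activates CDK2, by 0.99 and 0.63. E2F8, a repressor of the E2F family, was called lower, with -0.88 and -0.74. CDKN1B, the inhibitor p27, was called lower in mock (-0.40) and not in pollen (-0.15), and CCNA2, cyclin A2, was called in neither arm (-0.10 and 0.01).

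At 6h50 min 22 genes of the wider list were called higher and 10 lower in mock, and 21 higher and 12 lower in pollen, on the slide described above. These are 30.1% higher and 13.7% lower in mock and 28.8% higher and 16.4% lower in pollen, against 13.7% and 25.7% and against 15.4% and 29.3% of all gene names. CCNA2 was called lower by then, with -0.53 in mock and -0.52 in pollen (SE 0.10 for both). CDKN1A was called higher, with 0.86 and 0.79, and CDKN2B was called higher in mock (0.46) and not in pollen (0.38). CDK2, the partner of cyclin E, was called lower in both arms, with -0.68 in mock and -0.46 in pollen (SE 0.09).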

How the data were processed

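Each of the 30 one-colour Agilent arrays holds total RNA of BEAS-2B labelled with Cy3. Per the file headers Agilent Feature Extraction 11.0.1.1 made the deposited spot intensities, which were background subtracted and detrended within each array and not scaled between arrays. Deposited marks of 0 or 1 flag saturation, uneven or outlying spots, and signal well over background. Log2 values that the authors deposited, preprocessed per the methods with limma, served as an alternative. Their column medians were 5.77 to 5.80, and their scaling is not given in the sources used here. Of these columns 23 matched their own array best. The 6 columns of 24 h matched other arrays of their own group best, which leaves the group means of 24 h as they are. The column of pollen replicate 2 of 55 min matched mock replicate 3 of 6h50 min best. The correlation of deviations from group means was 0.333 there, against 0.318 with its own array. Gene names and hg19 positions are those in the files.

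Spots marked uneven or as outliers were left out, replicate spots were averaged within a probe, and the 75th percentile of each array, taken over the 33873 probes that the designs share, was subtracted from log2 signal. Probes that exceeded background on every array of 1 group or more, 32099 in all, were tested in R 4.3.3 with limma 3.58.1 (data.table, version 1.17.8). A model of 10 group means was fitted (20 residual and 2.35 prior degrees of freedom) with 17 contrasts and Benjamini-Hochberg adjustment over all probes. A difference of differences was called on its adjusted p alone. All adjusted p-values are from limma. A gene is represented by its tested probe with the highest mean, and 8 members had more than 1. The fit was tested on simulated data. Alternatives were other scalings, filters, blocks and weights, arrays left out, and 3 chosen after seeing the data, the quantile normalization over shared probes, the comparison within 1 slide and its repeat with same-numbered arrays averaged.

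The members, the wider list and the tests were chosen with earlier results of these data known. Every member could be named. Array values were to be given for CCND1, CCNE1, CCNE2, E2F1, CDC6, CDT1, MCM10, CDC45, PCNA, RRM2 and up to 3 members with the smallest p in a comparison, and those of other members printed were added after they were seen. From the wider list up to 3 genes each way with the largest called changes in a comparison were named, besides CDKN1A, CDKN1B, CDKN2B and CCNA2. One gene that this rule would name is not reported here.

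Same-numbered mock and pollen arrays deviated together at 10 min (correlations over tested probes of 0.30 to 0.31), 2h25 min (0.38 to 0.50) and 24 h (0.19 to 0.42), so that the numbers pair arms there. They did so less at 55 min (-0.05 to 0.23) and 6h50 min (0.05 to 0.09). The pairing comes from these correlations. The number of arrays limits the precision. There were 0 measurement columns without a condition.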

Additional observations from a re-analysis of the deposited data

How the results depend on the processing

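No member was called between pollen and mock in any setting, except MCM4 at 6h50 min without mock replicate 3, so that counts with 1 array left out ran from 0 to 1. At 24 h against 10 min, where 21 members were called in each arm, 6 in mock and 8 in pollen were called with quantile normalization over each array's own probes, 3 and 3 with the percentile over own probes, 11 in mock with normexp and quantile normalization, 12 and 11 with only the arrays compared, 1 and 1 with slide as a block, and 13 and 10 with slide as a random block. With quantile normalization over the probes of both designs the counts were 21 and 24. Leaving out 1 array gave 15 to 17 in each arm. At 6h50 min against 10 min, where 15 members were called in mock and 16 in pollen, the counts were 4 and 1 with quantile normalization, 2 and 3 with the percentile over own probes, 5 and 4 with normexp, 5 and 8 with the deposited values, 3 and 9 with slide as a random block, 3 in mock with only the arrays compared, and 9 in mock with quantile normalization over the probes of both designs. Leaving out 1 array gave 6 to 15 in mock and 13 to 16 in pollen, and slide as a block could not be fitted at this time. Within 1 slide, 24 h against 2h25 min gave 5 calls, and 8 with quantile normalization, 15 with normexp, 12 with the deposited values, 11 with quantile normalization over the probes of both designs and 0 with same-numbered arrays averaged. With array weights 1 member was called in mock at 55 min (MCM10) and 1 in pollen at 2h25 min (CCND1). In the other comparisons the counts stayed at 0. The replicate block, with the replicate number as a term, called 22 and 21 members at 24 h, 15 and 18 at 6h50 min and 0 between pollen and mock, and moved no count of calls by over 1.5 times.

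Single members changed sign at 55 min under scalings that set the median of all gene names itself below 0, at -0.486, -0.366, -0.261 and -0.227 for pollen minus mock with quantile normalization, percentile over own probes, normexp and the deposited values. In that order of the first 3, the pollen minus mock difference at 55 min was -0.197, -0.174 and -0.178 for CCNE2 and -0.066, -0.252 and -0.025 for RFC4, and with the deposited values it was -0.025 for CCNE2. Set against 10 min it was -0.145, -0.090 and -0.088 for CCNE2, -0.094, -0.198 and -0.063 for RFC4, and -0.075, -0.199 and -0.108 for PCNA, with -0.027 for PCNA in the deposited values. In pollen at 55 min against 10 min CDT1 was at -0.107, -0.196 and -0.067, RRM2 at -0.144, -0.160 and -0.089, and RRM1 at -0.187 with the percentile over own probes. At 24 h against 10 min CDT1 turned to 0.081 in mock and 0.075 in pollen and LIG1 to 0.007 in mock with slide as a block, and PCNA to -0.010 in pollen with the deposited values. The cause was not tested. Signal over background was no limit for the standing probes.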
